A study of Rattus norvegicus with 12 samples.

Results

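The 12 hippocampal arrays of this study were divided by the signal of 1 probe set, that of the complement gene C3, into 5 arrays with a signal above 60 and 7 arrays with a signal below 40. These are called high-C3 and low-C3 arrays here. The division follows a measured value and not a treatment, so everything said of the high-C3 against the low-C3 arrays is a description without a test. Tests were made only between the labelled groups.

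Microglia are the resident macrophages of the brain. They survey the tissue, take up debris and synaptic material, and make much of the brain's C1q, the recognition molecule that starts the classical complement cascade, which leads to cleavage of C3. Activated microglia raise lysosomal proteases and MHC class II molecules. In the hippocampus, a region prone to seizures, they respond to seizure activity together with astrocytes, and reactive astrocytes can also make C3.

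RNA came from the hippocampus of young rats (Rattus norvegicus) treated at postnatal day 20, and the study asked whether enriched housing lessens the harm that seizures do to neurons. KA, which the labels do not spell out, is taken as kainic acid, a glutamate receptor agonist that causes seizures, and PBS is the phosphate-buffered saline control. The 4 groups of 3 arrays were PBS_isolated and KA_isolated, whose rats lived alone in individual cages for 10 days, and PBS_enriched and KA_enriched, whose rats shared large enriched cages in groups of 8. Each array carried RNA pooled from 3 to 4 animals, so n counts pools and p-values set a difference against the spread between pools. The strain, the sex, the litter and the cage of each animal are not given in the sources used here. Whether pools of an enriched group shared a cage is therefore not known. No group lived in ordinary group housing, so enrichment, isolation and a shared cage cannot be told apart.

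Signals were alike in level across arrays, with array medians from 70.06 to 74.1. The high-C3 array KA_enriched replicate 3 stood apart in a control ratio that reflects RNA quality and in its correlation with the other arrays. Its log2 ratio of the 3′ to the 5′ beta-actin control probe sets was 0.856, against 0.361 to 0.639 in the other 11 arrays, and its mean correlation with the other arrays was 0.977, against 0.982 to 0.986. The first principal component, which held 19.2% of the variance, placed it at 19.1 and the other 11 arrays between -7.07 and 0.837. In the other 4 high-C3 arrays the beta-actin ratio ran from 0.361 to 0.639, and in the low-C3 arrays from 0.367 to 0.596. Its part in the results was not tested as a cause, but the leading genes are also given below for isolated and PBS_enriched arrays, which do not include it.

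The C3 probe set read 28.7, 27.8 and 29.5 on the PBS_isolated arrays, against 100.1, 110.2 and 69.95 on the KA_isolated arrays. On the PBS_enriched arrays it read 24.2, 99.1 and 22.5, and on the KA_enriched arrays 24.6, 26.4 and 105.9. All 3 KA_isolated arrays were high and all 3 PBS_isolated arrays were low, whereas each enriched group held 1 high array and 2 low ones. No array lay between 29.46, the highest low-C3 signal, and 69.95, the lowest high-C3 signal. The 5 high-C3 arrays thus comprised 4 KA and 1 PBS array, of which 3 were isolated and 2 enriched. Among the 7 low-C3 arrays were 2 KA and 5 PBS arrays, of which 3 were isolated and 4 enriched. On the scale log2(signal + 17), used for every difference below, C3 was 1.39 higher on the high-C3 side.

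The other 5 marker genes for microglia put the same 5 arrays on top. They were named together with the split when earlier results of these data were known, so this is a description and not independent support. Cd74, the invariant chain that escorts MHC class II molecules, had signals of 28.4, 39.6 and 49.2 for PBS_isolated, 125, 187 and 102 for KA_isolated, 42.2, 152 and 59.7 for PBS_enriched, and 43.9, 33.6 and 124 for KA_enriched. Its lowest high-C3 array, KA_isolated replicate 3, was above its highest low-C3 array, PBS_enriched replicate 3, and the difference was 1.38. C1qa, a chain of C1q, gave 159, 171 and 179 for PBS_isolated, 317, 319 and 224 for KA_isolated, 176, 288 and 157 for PBS_enriched, and 180.3, 139.5 and 248 for KA_enriched. Again the sides did not overlap, with a difference of 0.69.

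Fcer1g, the signalling chain shared by several Fc receptors, ran from 282 to 343 with a median of 322 on the high-C3 arrays and from 155 to 214 with a median of 199 on the low-C3 arrays. Csf1r, the receptor through which microglia receive their survival signal, was at 284 to 353 against 182 to 247, with medians of 301 and 201. Laptm5, a lysosomal membrane protein of blood-lineage cells, was at 122 to 165 against 91.7 to 112, with medians of 131 and 104. The differences of these 3 genes were 0.64, 0.54 and 0.37. In none of them did an array of one side reach the other side, and the narrowest gap was that of Laptm5. In bulk tissue, more cells of a type and more RNA per cell cannot be told apart.

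**Figure D1:**
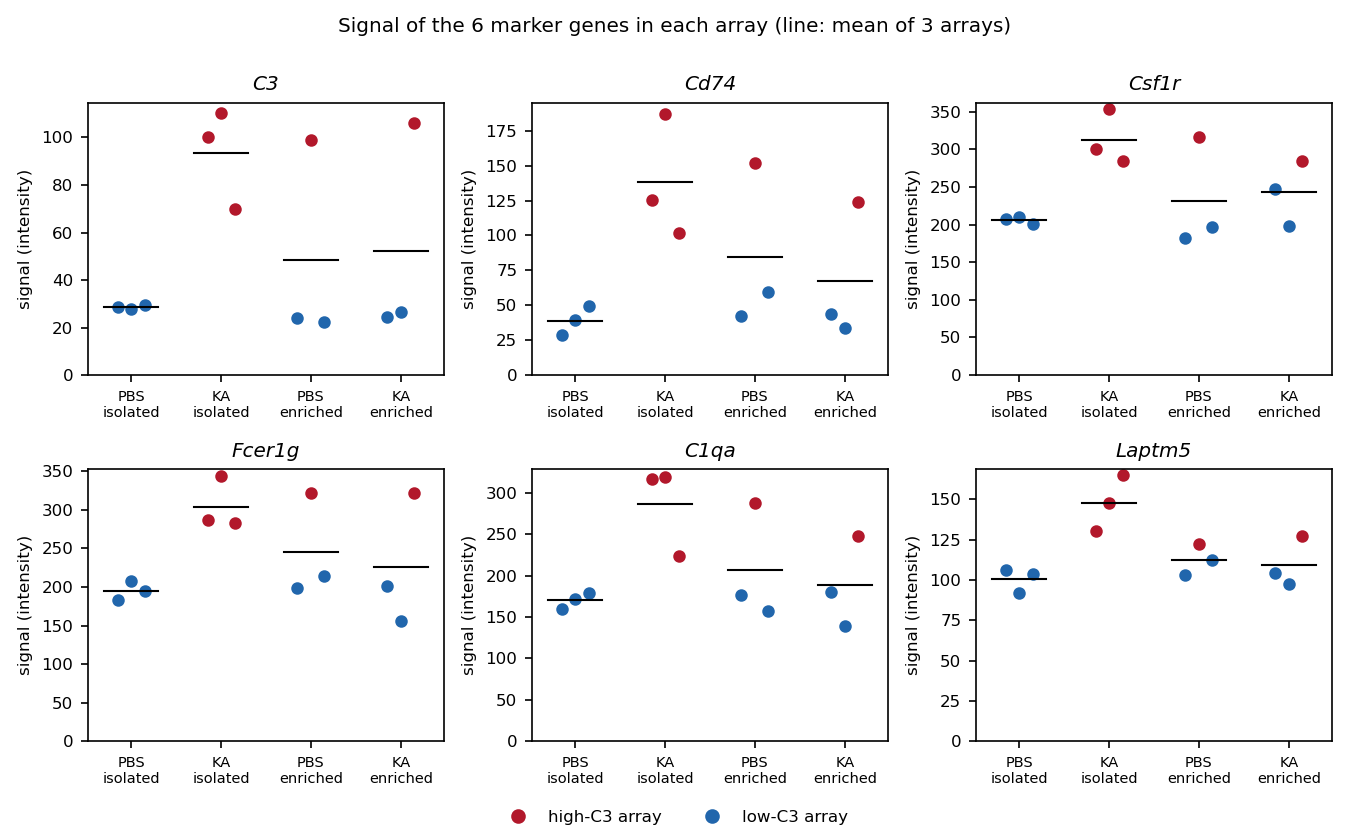
Signal (intensity, linear axis) of the 6 marker genes in each of the 12 arrays, grouped by label, with high-C3 arrays in red, low-C3 arrays in blue and a line at the mean of each group of 3. For C3 the high-C3 arrays lie between 69.95 and 110.2 and the low-C3 arrays between 22.5 and 29.5, and for Laptm5 the gap is narrowest, 122 against 112.

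Across the 9520 probe sets tested, 81 had every high-C3 array above every low-C3 array (0.851% of all tested), and 32 had every high-C3 array below every low-C3 array (0.336%). Together these were 113 probe sets, or 1.19%. The C3 probe set is itself among the higher ones by the rule of the split, which leaves 80 of 9519 others (0.84%). Without KA_enriched replicate 3 the counts were 111 and 65, and fewer arrays separate more easily. Apart from C3, the higher ones carried differences from 0.10 to 1.38 with a median of 0.31, and 17 were over 0.5. The lower ones ran from -0.11 to -0.41 with a median of -0.18, and 0 passed 0.5 in size. Over all tested probe sets the median difference was -0.01 and the central 95% lay between -0.20 and 0.20. Of the 81 higher probe sets, 72 had 1 gene symbol and stood for 71 genes. Of the 32 lower ones, 24 had 1 symbol.

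After C3 and Cd74, the gene of largest difference was RT1-Da, the alpha chain of a rat MHC class II molecule. Its signal was 32.3, 27.4 and 41.9 for PBS_isolated, 66.8, 96.4 and 70.2 for KA_isolated, 32.9, 91.9 and 44.8 for PBS_enriched, and 30.4, 28.2 and 84.2 for KA_enriched. S100a4, a calcium-binding protein of motile and immune cells, followed with 42.4, 48.2 and 39.8, then 106, 107 and 93.1, then 46.7, 136 and 54.5, then 47.4, 55.6 and 90.1 in the same order of groups. Rnaset2, a lysosomal ribonuclease, gave 162, 181 and 169 for PBS_isolated, 296, 308 and 293 for KA_isolated, 172, 292 and 182 for PBS_enriched, and 184, 159 and 298 for KA_enriched. The differences were 0.96, 0.92 and 0.73, and the 5 high-C3 arrays of Rnaset2 lay within 292 to 308 although they came from 3 labelled groups.

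The promoters of C3, RT1-Da and S100a4 are printed because these genes lead the higher set and stand for complement, antigen presentation and calcium binding. They were chosen after their values were seen. Each runs from 250 bases before to 50 bases after the gene's start, 5′ to 3′ on the gene's strand, from RefSeq on build GRCr8: C3 on the minus strand at chr9:2201290-2201589, RT1-Da on the plus strand at chr20:4515165-4515464, and S100a4 on the plus strand at chr2:178388279-178388578. Capitals mark matches, on either strand, to 5 motifs: the PU.1 core GAGGAA, the NF-kappaB motif (GGG and CC with any 5 bases between), the interferon response element (GAAA and GAAA with any 2 bases between), the Y box ATTGG and the TATA box TATAAA.
C3: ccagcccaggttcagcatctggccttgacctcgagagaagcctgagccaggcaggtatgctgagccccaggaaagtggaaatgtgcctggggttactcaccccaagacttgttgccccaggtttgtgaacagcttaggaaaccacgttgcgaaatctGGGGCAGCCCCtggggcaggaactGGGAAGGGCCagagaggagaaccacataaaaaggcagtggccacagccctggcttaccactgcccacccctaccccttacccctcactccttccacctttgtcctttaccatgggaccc
RT1-Da: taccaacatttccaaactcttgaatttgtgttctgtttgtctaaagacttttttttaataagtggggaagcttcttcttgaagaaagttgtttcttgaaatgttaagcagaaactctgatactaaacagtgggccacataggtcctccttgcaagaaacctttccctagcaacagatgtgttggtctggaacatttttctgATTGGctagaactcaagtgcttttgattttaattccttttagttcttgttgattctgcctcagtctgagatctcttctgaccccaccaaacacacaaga
S100a4: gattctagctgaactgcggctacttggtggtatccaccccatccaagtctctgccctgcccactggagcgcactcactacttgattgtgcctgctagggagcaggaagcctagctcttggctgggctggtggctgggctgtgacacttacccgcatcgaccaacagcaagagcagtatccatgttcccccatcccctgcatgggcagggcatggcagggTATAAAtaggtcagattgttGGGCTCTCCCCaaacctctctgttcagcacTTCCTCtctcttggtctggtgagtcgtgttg

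The C3 window held overlapping NF-kappaB matches, the RT1-Da window a Y box, the element shared by MHC class II promoters, and the S100a4 window a TATA box, overlapping NF-kappaB matches and a PU.1 core. PU.1 is a transcription factor that microglia and other myeloid cells need. Its core occurred in 41.3% of 63 promoters of 60 higher genes, C3 included, in 25.5% of 6470 promoters of genes tested, in 27.6% of all 33469 promoters of this length, and in 19.0% of 21 promoters of 19 lower genes. The NF-kappaB motif occurred in 61.9% of the higher promoters and 67.3% of those tested, the interferon response element in 4 of 63 and 162 of 6470, the Y box in 39.7% and 37.4%, and the TATA box in 7.94% and 6.49%. Over all promoters the same 4 motifs occurred in 47.3%, 3.92%, 37.5% and 14.2%. A match says only that these letters are in the window.

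Complement genes made up one group of the higher set. Leaving out C3, whose separation the split itself fixed, 5 of 6 measured genes of the complement list were higher by any amount and 4 did not overlap between sides, with a median difference of 0.33. By comparison, 3456 of all 6923 genes were higher by any amount, and the median over all genes was 0.00. Of all genes, 69 did not overlap in the higher direction (0.997%) and 17 in the lower (0.246%). These shares are the comparison for every list below, and a list with 0 genes without overlap is near them. C1qb, another chain of C1q, was at 138 to 198 on the high-C3 arrays and 80.8 to 126 on the low-C3 arrays, a difference of 0.59. Masp1, a protease of the lectin pathway, was at 296 to 325 against 211 to 272, and clusterin (Clu), which restrains the terminal complex and is made largely by astrocytes, at 2234 to 2650 against 2041 to 2138. C1qc overlapped, at 76.6 to 107 against 50.2 to 83.4, and properdin (Cfp), which stabilises the alternative pathway's enzyme, differed by 0.00. C1qa, one of the 4, is also a marker gene of the split.

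MHC class II and its loading machinery formed a second group, with 7 of 7 measured genes higher and 5 without overlap. The median difference was 0.21. Cathepsin S (Ctss), the protease that trims the invariant chain, was at 937 to 1081 against 642 to 795. RT1-DMa and RT1-DMb, the 2 chains of the molecule that loads peptide, differed by 0.21 and 0.20, with signals of 123 to 140 against 96.1 to 122 and 120 to 141 against 100 to 115. With equal array medians RT1-DMa overlapped. The class II transactivator Ciita fell below the filter on dim probe sets, with overlapping signals of 37.3 to 53.7 and 34.4 to 53.8. So did the class II genes RT1-Db1, at 17.2 to 49.0 against 31.3 to 49.8, and RT1-Ba, at 42.1 to 85.6 against 4.59 to 45.6. In the MHC class I list, 10 of 11 genes were higher but 0 separated the sides, with a median of 0.12. Its probe set for beta-2 microglobulin (B2m), the light chain of class I molecules, differed by 0.20 with overlap, while a second, dimmer B2m probe set separated the sides at 259 to 285 against 204 to 256.

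Lysosomal genes were the list with the most members without overlap by count, with 23 of 24 measured genes of the phagocyte lysosome list higher, 9 of them without overlap, and a median of 0.18. By share the list was lower, at 37.5% without overlap against 71.4% of the shorter MHC class II list. Cathepsin Z (Ctsz) ran from 57.5 to 104 against 36.1 to 56.4. Npc2, which moves cholesterol out of lysosomes, ran from 593 to 810 against 459 to 522, and Gpnmb, a glycoprotein of lipid-laden phagocytes, from 69.0 to 104 against 52.2 to 62.9. Their differences were 0.54, 0.42 and 0.43. Other members without overlap, named after their values were seen, were the growth factor precursor progranulin (Grn), higher by 0.37, and lysozyme (Lyz2), by 0.25, the latter overlapping with equal array medians. Cathepsin H (Ctsh) was counted too, but its lowest high-C3 signal was 239.61 and its highest low-C3 signal 239.594. It overlapped after quantile normalization and with equal array medians. Ctss is a member here and in the MHC class II list. Mpeg1, a perforin-like macrophage protein outside the lists, was higher by 0.38.

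Genes that identify microglia were uneven. P2ry12, the nucleotide receptor by which resting microglia sense injury, separated the sides on both of its probe sets, at 121 to 192 against 81.7 to 118 on one and 147 to 174 against 95.5 to 127 on the other. Of the 27 separating genes with several probe sets, P2ry12 was the only one whose probe sets all separated the sides. This count takes in probe sets below the filter, and some genes, such as Clu and Masp1, failed it only through those. Aif1, also called Iba1, separated on one probe set (48.1 to 79.3 against 30.4 to 43.2) but not on the other (51.7 to 82.8 against 45.6 to 78.3). Cd53, a tetraspanin of blood-lineage cells, was higher by 0.42 without overlap, though it overlapped once the array medians were made equal. Cx3cr1, the fractalkine receptor, differed by 0.06 and Tmem119, a microglial membrane protein, by 0.10, both with overlap. Of 12 measured genes in that list 10 were higher, 3 without overlap, with a median of 0.13. Csf1r, one of the 3, is also a marker gene of the split.

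Receptor signalling genes and transcription factors were also higher. In the list of Fc receptor and immune cell signalling, 13 of 13 genes were higher, 4 without overlap, with a median of 0.20. Of all 6923 genes, 3456 were higher and 69 were higher without overlap. Of the list's 4 genes without overlap, Fcer1g and Laptm5 are also marker genes of the split. Another was moesin (Msn), which ties the membrane to actin, higher by 0.35. Tyrobp, the adaptor of several microglial receptors, was higher by 0.32 with overlap. Of 6 myeloid transcription factors all were higher, and Maf alone was without overlap, by 0.23, which it lost under both alternative scalings of the arrays. Among the 15 largest outside the lists were the related membrane proteins Tmem176b and Tmem176a, at 429 to 513 against 259 to 310 and 272 to 326 against 177 to 209.

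No measured interferon or cytokine gene separated the sides, which is near the share over all genes (0.997% higher and 0.246% lower without overlap). In the interferon response list 8 of 10 genes were higher and 0 were without overlap, with a median of 0.08. Of 9 measured genes for cytokines, chemokines and NF-kappaB 6 were higher and 0 without overlap, with a median of 0.07, and Nfkbia, the inhibitor that NF-kappaB itself induces, differed by 0.16 with overlap. Only 9 of the 35 genes of that list on the array passed the filter, so most of its genes were too dim to be counted.

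Genes of the reactive astrocyte list were also mostly higher on the high-C3 arrays, while those of the homeostatic astrocyte list lay near 0. Of 17 measured reactive astrocyte genes, 16 were higher and 4 without overlap, with a median of 0.16. Anxa3, a membrane-binding annexin, was the largest of them, at 289 to 383 against 192 to 214, a difference of 0.66. Which cells made its RNA was not tested, so its place in this list does not make it an astrocyte change. A2m, a protease inhibitor, was at 99.9 to 113 against 71.6 to 92.8, and Hspb1, a small heat shock protein, at 60.7 to 68.1 against 24.5 to 59.6. Gfap, the intermediate filament of astrocytes, was higher by 0.33, but its high-C3 arrays (2051 to 2611) overlapped the low-C3 arrays (1661 to 2142). The list's summed signal, here and below taken over all its genes on the array, dim ones included, was 5213 to 5744 against 4273 to 4910. The part of astrocytes in the C3 signal was not tested. Of 16 homeostatic astrocyte genes 11 were higher and 2 without overlap, with a median of 0.04, one of the 2 being Clu again, and Gjb6, a gap junction protein, was lower by 0.32 with overlap.

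**Figure D2:**
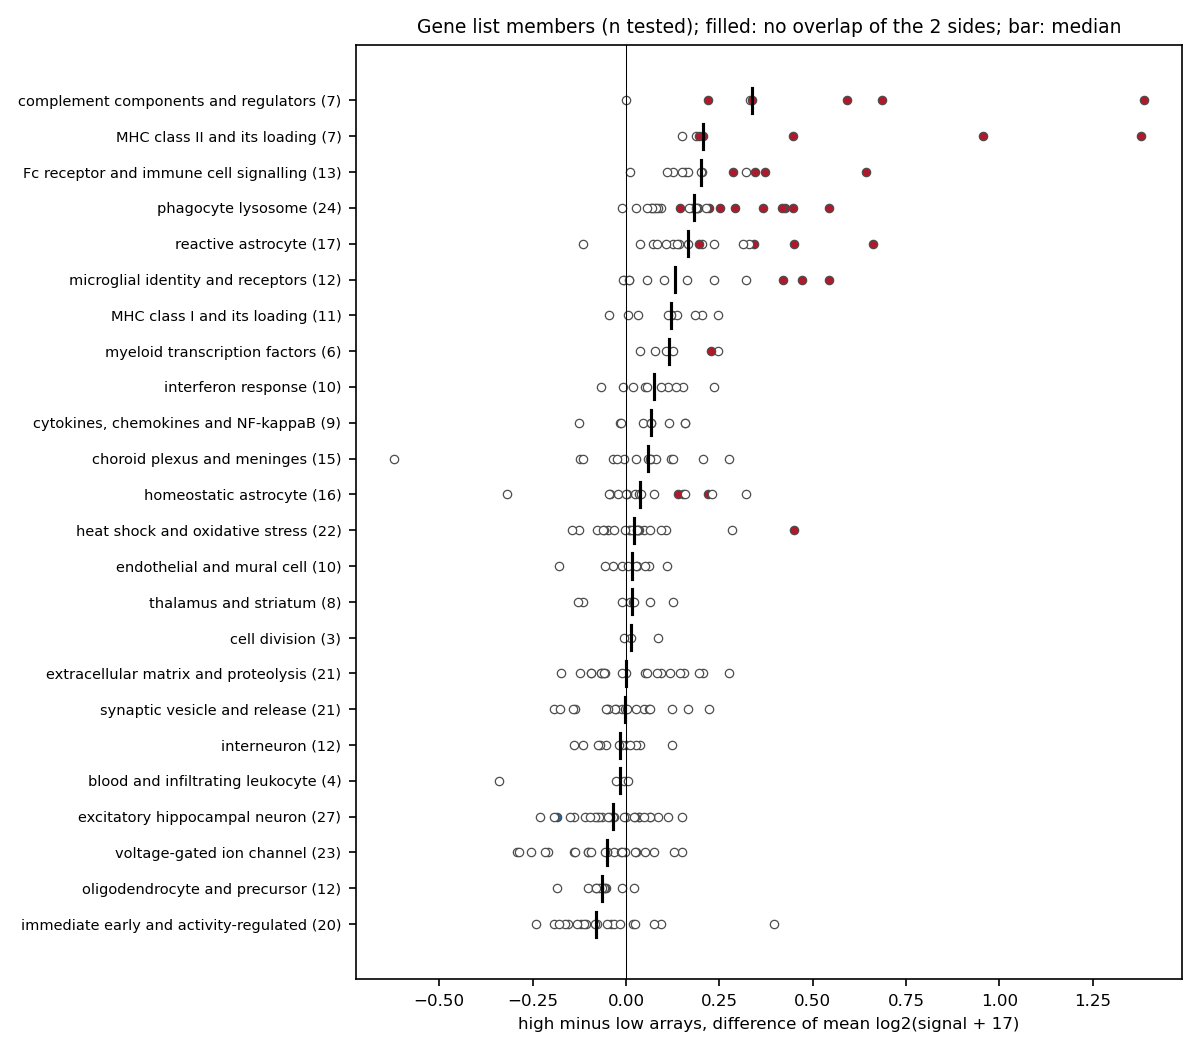
High-C3 minus low-C3 difference in mean log2(signal + 17) for each measured member of the gene lists, one row per list, with the median as a bar and filled points where the 2 sides do not overlap. Complement, MHC class II, lysosomal and reactive astrocyte members lie mostly above 0, and neuronal lists lie around 0.

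No measured marker of blood, choroid plexus or vessel cells separated the sides. In lists this short that is near the share over all genes, 0.997% higher and 0.246% lower without overlap. In the blood and infiltrating leukocyte list, 1 of 4 measured genes was higher and 0 separated. The summed signal over the list's 20 genes on the array was 3304 to 4124 against 3236 to 4508. Most of it was Hbb, at 2871 to 3562 against 2743 to 3918. The T cell genes Cd3d (3.43 to 9.90 against 2.24 to 13.1) and Cd3e (10.1 to 20.7 against 16.1 to 26.2), the neutrophil gene S100a8 (0.337 to 1.87 against 0.312 to 3.02) and the monocyte receptor Ccr2 (11.4 to 16.1 against 4.85 to 14.3) were below the filter and overlapped. In the choroid plexus and meninges list 9 of 15 were higher and 0 separated, with sums of 3223 to 4248 against 2609 to 7201. Ttr, the thyroxine carrier of choroid plexus, differed by -0.62 with overlap, and its highest signal was 2719 in PBS_isolated replicate 1. Endothelial and mural genes numbered 6 of 10 higher with 0 separating, and the list's sums were 5071 to 5239 against 5006 to 5422.

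Neuronal and myelin genes gave medians just below 0. Of 27 excitatory neuron genes 11 were higher and 1 was lower without overlap, with a median of -0.03, and the summed signal was 22119 to 23304 against 23167 to 23685. The oligodendrocyte list had 1 of 12 genes higher and 0 separating, with a median of -0.06. Within labels that median was 0.00 in isolated rats, -0.10 in PBS_enriched and -0.20 in KA_enriched. The voltage-gated ion channel list had 6 of 23 higher, with a median of -0.05, and the interneuron list 5 of 12, with a median of -0.02. Neither list had a gene without overlap on the probe sets counted.

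The lower set was smaller, and Itpka was its only gene counted in any of the 24 lists. Its largest difference, -0.41, was that of Mrps11, a protein of the mitochondrial ribosome, with signals of 139, 145 and 153 for PBS_isolated, 97.9, 107 and 89.6 for KA_isolated, 117, 103 and 142 for PBS_enriched, and 146, 144 and 111 for KA_enriched. Htr5b, a serotonin receptor, was at 158, 164 and 161, then 117, 116 and 108, then 166, 138 and 148, then 156, 151 and 118 in the same order. In both genes the 5 high-C3 arrays were the lowest, with little room between 111 and 117 for Mrps11.

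Further genes without overlap were Ntng1, a netrin-like guidance protein (43.2 to 64.9 against 67.7 to 80.6), Trpc4, a cation channel (80.5 to 99.9 against 102 to 130), and Itpka, a kinase of dendritic spines (530 to 615 against 629 to 688). The growth factor Vegfa (52.2 to 69.5 against 71.6 to 88.3) and the potassium channel Kcnc2 (76.3 to 88.7 against 89.4 to 115) separated the sides on 1 probe set, while their other probe sets overlapped. Ube4b, a ubiquitin ligase, was lower by 0.36 on one probe set and differed by 0.03 on another. Of the 12 largest lower genes, 11 remained without overlap after quantile normalization and 10 with equal array medians, whereas all 15 largest higher genes did so under both. Over the whole sets, 58 of the 72 higher probe sets with 1 symbol and 14 of the 24 lower ones stayed without overlap under both scalings, and all kept their sign.

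**Figure D3:**
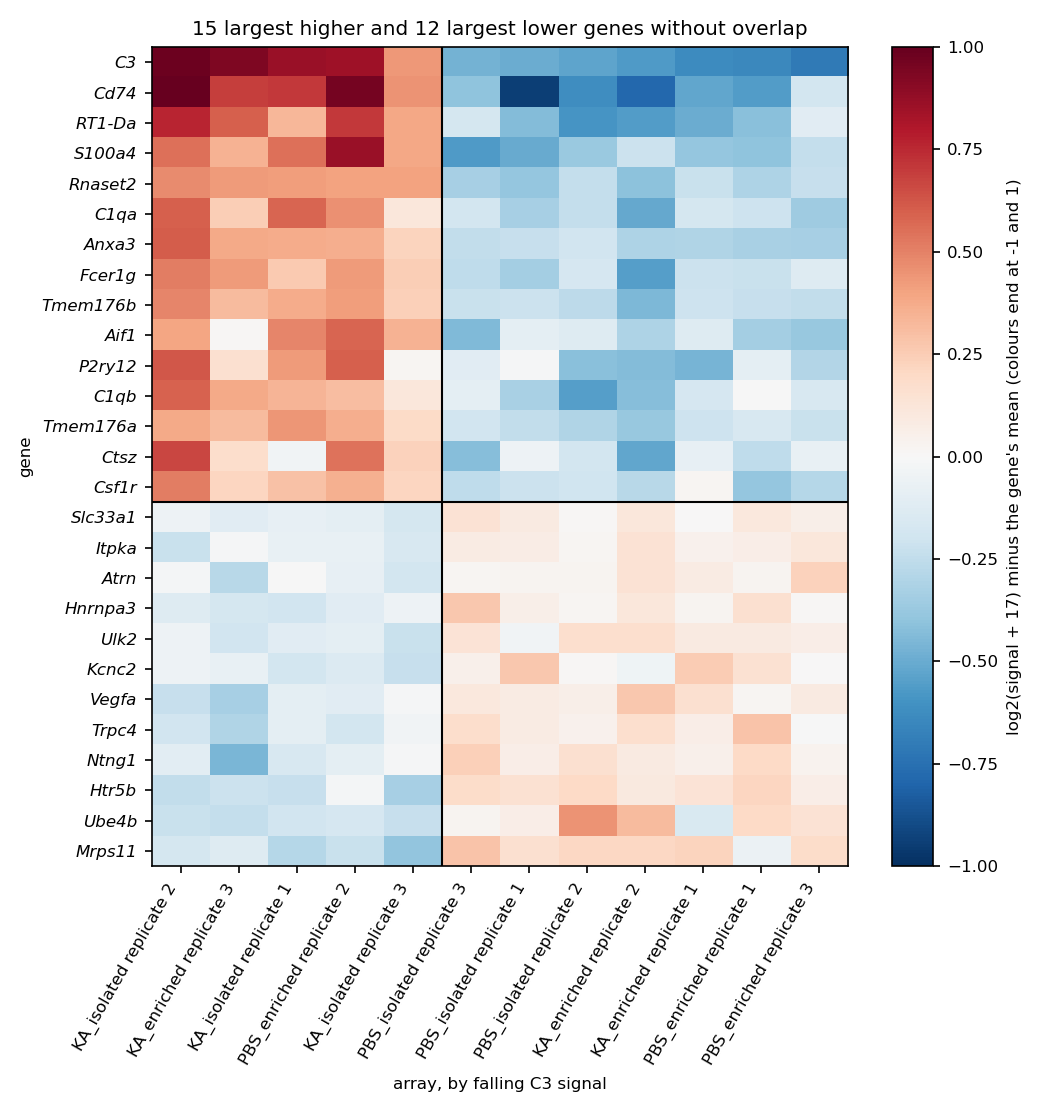
Heat map of the 15 largest higher and 12 largest lower genes without overlap, each row centred on its mean log2(signal + 17) and each column an array. The 5 high-C3 arrays, from 3 labelled groups, share the upper block of higher values, and the lower block is fainter, from -0.18 to -0.41 as against 0.54 to 1.39.

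The split could be read separately in arrays that share no sample. Within isolated rats the sides are the KA and PBS groups, and within each enriched group the 1 high-C3 array can be set against the 2 low-C3 arrays. For Rnaset2 the 3 differences were 0.75 in isolated, 0.67 for PBS_enriched and 0.74 for KA_enriched rats. RT1-Da gave 0.89, 0.97 and 1.13, C1qa 0.69, 0.73 and 0.59, and Csf1r 0.56, 0.69 and 0.34. S100a4 gave 0.98, 1.18 and 0.65. Each enriched difference rests on 1 high-C3 array, and the parts of KA and of RNA quality were not tested. Absence of overlap over all 12 arrays fixes the same sign in all 3, so only their sizes can differ.

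Across all 9520 probe sets the isolated difference and the mean of the 2 enriched differences had a Pearson correlation of 0.23 and a Spearman correlation of 0.16. Without the probe sets that separate the sides, Pearson's value was 0.14. The points are probe sets of the same arrays and are not independent. Between the PBS_enriched and the KA_enriched difference the correlation was -0.01. Differences over 0.5 in size numbered 31 in isolated rats, 111 for PBS_enriched and 493 for KA_enriched. The only high-C3 array of KA_enriched is replicate 3, the array of highest beta-actin ratio, and its part in that count was not tested. The isolated difference sets 3 arrays against 3 and each enriched one 1 against 2, so the counts are not like for like. Fitted on the 6 isolated arrays alone, 235 probe sets were higher after KA at an unadjusted limma p below 0.05, and 130 of these (55.3%) were also higher in both enriched comparisons, against 24.5% of all tested. Of the 282 lower ones, 95 (33.7%) were lower in both, against 23.1% of all tested.

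**Figure D4:**
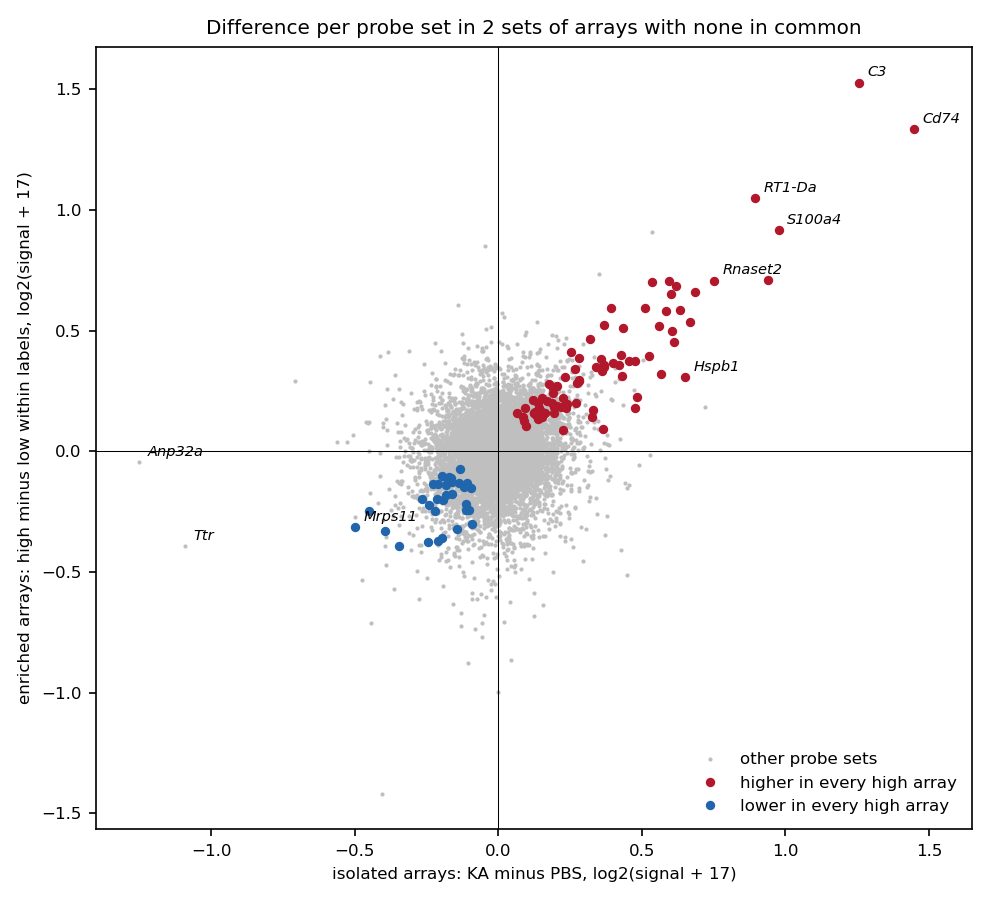
Difference per probe set on log2(signal + 17), KA minus PBS in isolated rats on the horizontal axis and high-C3 minus low-C3 within the enriched groups on the vertical axis, from 6 arrays each with none in common. Most probe sets lie near 0 on both axes (Pearson 0.23), while C3, Cd74, RT1-Da and S100a4 lie far out on both.

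Only labelled groups were tested, with limma over all 12 arrays. KA against PBS in isolated rats is the one contrast whose groups lie wholly on opposite sides, so it repeats the split for those 6 arrays. At an adjusted p below 0.05, 0 of 9520 probe sets were higher (0%) and 1 was lower (0.0105%), and 410 had an unadjusted p below 0.05. None of the marker genes passed, and Laptm5, for example, was higher by 0.48 (limma adjusted p = 0.589). With the fit restricted to the 6 isolated arrays, 4 probe sets rose (0.042%) and 1 fell (0.0105%). One of the 4 is C3, with a difference of 1.26, for which no p is given because its signal chose the arrays. S100a4 rose by 0.98 with an SE of 0.085 (limma adjusted p = 0.0143) and Rnaset2 by 0.75 with an SE of 0.072 (limma adjusted p = 0.0158). The remaining probe set is annotated to several genes and rose by 0.94. In the 12-array fit the spread within the enriched groups, each of which holds both sides, enters the error. There S100a4 had a limma adjusted p of 0.854 for the same contrast.

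The one gene that passed in the 12-array fit did not follow the split. Anp32a, a histone-binding phosphatase inhibitor, was at 385, 331 and 459 for PBS_isolated, 167, 162 and 132 for KA_isolated, 127, 132 and 159 for PBS_enriched, and 116, 83.7 and 98.4 for KA_enriched. Its signal was high in the 3 PBS_isolated arrays and lower in the other 9, on both sides of the split. It fell by 1.25 after KA in isolated rats with an SE of 0.13 (limma adjusted p = 0.00361), while its differences between high-C3 and low-C3 arrays within PBS_enriched and KA_enriched were -0.09 and 0.00. As the mean of both housings, KA against PBS also had 1 call, Anp32a, lower by 0.84 (limma adjusted p = 0.00648), and 0 higher. The interaction, the KA effect in enriched minus that in isolated rats, had 0 calls, with 473 probe sets at an unadjusted p below 0.05 and a lowest limma adjusted p of 0.194.

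Genes that neurons induce with activity did not separate the sides either. Arc, a synaptic plasticity protein, was at 280, 241 and 226 for PBS_isolated and 185, 188 and 201 for KA_isolated, with 285, 351 and 319 for PBS_enriched and 285, 440 and 343 for KA_enriched. Its 2 enriched high-C3 arrays, at 351 and 343, lay far above its 3 isolated ones. Egr1, an immediate early transcription factor, differed by -0.16 between sides with overlap, Bdnf, a neurotrophin, by 0.09, and the neuropeptide Npy by 0.00. Over the 20 measured immediate early genes 5 were higher, 0 were without overlap, and the median was -0.08. The 0 is near the share over all genes, 0.997% higher and 0.246% lower without overlap.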

How the data were processed

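The files hold 1 deposited signal per probe set and array, an intensity on a linear scale from single-colour Affymetrix-type arrays. The sources used here do not give the way in which the authors summarised probes. Every array's deposited intensity had a mean of 150 once 2% of probe sets was left out at each end, so no further scaling was applied. It ran from 0.00359 to 5591, and the number of arrays limits the precision.

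Of 15923 probe sets, 57 controls were left out. Signals were put on log2(signal + 17), which understates differences of dim genes, and the 60% of 15866 probe sets with the highest mean were used, 9520 in all. Gene names came from the array annotation (12783 probe sets with 1 symbol, 312 with several, 2771 unlisted), and 12748 were matched to RefSeq by Entrez ID. For gene lists, 1 probe set per gene, that of highest mean, gave 6923 genes.

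Labelled groups were taken from the treatment text, and replicate numbers from the titles. Contrasts between them used limma 3.58.1 in R 4.3.3 with a mean per group and 13.1 degrees of freedom, two-sided, with Benjamini-Hochberg adjustment over the 9520 probe sets and a threshold of 0.05. The limma step was tested on simulated data for KA against PBS in isolated rats, and the other steps were not. Named were the 6 markers, the 15 largest higher and 12 largest lower genes without overlap, up to 4 members per list, and Gfap, Aif1, Bdnf, Npy, Egr1, Arc, Ttr, Mbp and Anp32a. Genes outside this rule, among them Cx3cr1, Tmem119, Cfp, C1qc, RT1-DMb and Ciita, were named after their values were seen. The split, the 24 lists and the naming rule were chosen with earlier results of these data known. Alternatives covered the pseudocount, the filter, the scaling, array weights, an RNA quality covariate, a replicate block and leaving out each array.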

Additional observations from a re-analysis of the deposited data

How the results depend on the processing

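Quantile normalization changed the direction of none of the 5 marker genes other than C3, whose direction the split fixes. Leaving out an array, changing the pseudocount or comparing only within the enriched groups cannot turn the sign of genes without overlap. Counts without overlap were 80 higher and 32 lower with log2(signal + 5), and 78 (71 shared with the reported set) and 31 (24 shared) after quantile normalization. With equal array medians 81 were higher (69 shared) and 21 lower (19 shared). Keeping the 30% of probe sets with the highest mean left 46 higher and 18 lower of 4760, since fewer were counted. Leaving out each array gave 90 to 112 higher and 43 to 65 lower, since fewer arrays separate more easily. Without KA_enriched replicate 3 the counts were 111 and 65. The lower count passed 1.5 times its value of 32 without any 1 of the 5 high-C3 arrays (55 to 65) and without PBS_isolated replicate 1 (53). C3 differed by 1.53 within the enriched groups alone, by 1.70 with log2(signal + 5) and by 1.48 without KA_isolated replicate 3, and Laptm5 by 0.23 within the enriched groups.

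In limma, KA against PBS in isolated rats had 5 calls with only the 6 isolated arrays and 1 call under each other alternative. The mean of both housings had 0 calls with no filter on dim probe sets, where 714 probe sets had an unadjusted p below 0.05 and the lowest adjusted p was 0.0553. Leaving out each array gave 1 call in both and 0 for the interaction. With the replicate number as a block the calls were 1, 1 and 0. The 18 same-numbered pairs had correlations of deviations from -0.07 to 0.20 with a median of 0.06, of which 2 were over 0.1. The 36 different-numbered pairs ran from -0.14 to 0.10 with a median of -0.02, of which 1 was over 0.1. These values do not settle whether the numbers pair the samples, and the main fit takes the arrays as unpaired.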

Other observations

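Below the filter on dim probe sets, 8 more probe sets were higher and 12 more lower without overlap. They were looked at after their values were seen. Fcgr2b, the inhibitory Fc receptor of myeloid cells, was at 26.2 to 47.7 on the high-C3 arrays against 7.05 to 12.8 on the low-C3 arrays. Cd44, a hyaluronan receptor, was at 35.2 to 46.2 against 6.20 to 35.03, and Rac2, a GTPase of blood-lineage cells, at 40.5 to 48.7 against 25.3 to 38.2. The gap of Fcgr2b was wide and that of Cd44 narrow.

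Among genes of small difference, named after their values were seen, the gap junction gene Gja1 of astrocytes was at 2341 to 2512 against 2082 to 2240, a difference of 0.14, while its other tested probe set overlapped and this one did so after quantile normalization. Serpini1, a neuronal protease inhibitor, was lower by 0.13 and stayed without overlap under both alternative scalings.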
